A study of Mus musculus with 4 samples.

Results

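Nuclear genes for the subunits of respiratory complexes II to V and for cytochrome c were examined in mouse lung tumours driven by an activated K-Ras allele, with and without Mll4. The genes were chosen by symbol alone (Sdha to Sdhd, Cyc1, Cycs, and all symbols starting with Uqcr, Cox4 to Cox8 or Atp5), which gave 49 of the 24391 genes listed for each sample. They comprise 4 genes of complex II, 9 of complex III, the cytochrome c gene, 18 of complex IV and 17 with a complex V symbol. The K-Ras group held 2 tumour samples of the genotype K-Ras LSL-G12D, in which a lox-stop-lox cassette keeps the mutant allele silent until Cre removes it. The K-Ras Mll4-/- group held 2 samples that carried the same allele together with Mll4 fl/fl. The age of the mice, the route of Cre delivery and the cells it reached are not given in the sources used here, nor is it stated whether each sample came from its own mouse, so p-values measure the spread between these samples only. All samples were digested, freed of red blood cells and depleted of CD45-bearing leukocytes before RNA extraction.

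The respiratory chain sits in the inner mitochondrial membrane. Complex II (succinate dehydrogenase) feeds electrons from succinate into ubiquinone, complex III passes them from ubiquinol to cytochrome c, and complex IV (cytochrome c oxidase) hands them to oxygen. Complexes III and IV pump protons, and complex V (ATP synthase) uses the return flow of protons to make ATP. All subunits of complex II and most of those of the other complexes are encoded in the nucleus, and several complex IV subunits exist as a widely expressed form and a form restricted to heart and muscle, lung or testis. Nuclear respiratory factor 1 (NRF1), the ETS factor GABP, YY1 and the oestrogen-related receptors are known regulators of this gene group.

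The reads assigned to genes numbered 26683033 to 36677987 per sample. Before scaling between libraries, 3 reads correspond to 0.0818 to 0.112 per 1000000 gene-assigned reads. CPM stands for counts per 1000000 gene-assigned reads, after scaling between libraries. Kmt2d, the current symbol of Mll4, was at 367 and 317 CPM in the K-Ras Mll4-/- samples and at 395 and 526 CPM in the K-Ras samples (edgeR quasi-likelihood adjusted p = 0.302). Counts per whole gene do not resolve a deleted exon, so the loss of Mll4 rests on the labels. The lung label was matched by 8 alveolar type 2 markers, which together reached 15384.8 to 25593.5 CPM. Whether the cells were tumour cells was not tested. One K-Ras library stood apart in airway content. The 7 ciliated markers summed to 1037.2 CPM in K-Ras replicate 2 against 253.88 to 286.62 CPM in the other samples. The 4 club cell markers summed to 3587 CPM in that library against 565 to 743 CPM. In the other samples the ciliated sum was mostly Tubb4b, at 160 to 188 CPM. Of the 7 ciliated markers, 6 were lower in both K-Ras Mll4-/- samples than in both K-Ras samples, against 28.5% of all genes. Foxj1 was at 12.8 and 16.5 CPM against 27.8 CPM in K-Ras replicate 1 and 222 CPM in replicate 2. The sum of the 6 fibroblast markers was highest in K-Ras replicate 1, at 2463 CPM against 837 to 1121 CPM. Lum was instead lowest there. Of the 6, 5 were lower without overlap in the K-Ras Mll4-/- samples, against 28.5% of all genes, and Lum overlapped. The 6 endothelial markers summed to 2902 and 2269 CPM in the K-Ras Mll4-/- samples and to 3848 and 4045 CPM in the K-Ras samples, and the 6 smooth muscle markers to 94.0 and 84.6 CPM against 118 and 127 CPM. The 6 immune markers summed to 3104 to 4791 CPM after the depletion, and the sums overlapped between the groups. Most of the sum was Lyz2, at 2821 to 4302 CPM. Ptprc, the gene of CD45, was at 269 and 171 CPM in the K-Ras Mll4-/- samples and at 274 and 143 CPM in the K-Ras samples. Of the 6, 5 overlapped and Itgam was lower without overlap, as were 28.5% of all genes. In bulk RNA, fewer cells of a type and less RNA per cell cannot be told apart, and the part of cell content in the differences below was not tested.

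Promoters are shown for the member with the highest log2 fold change in complexes III, IV and V and for the carrier, not for complex II. They are read 5′ to 3′ from RefSeq (GRCm38.p6), in the 250 bases before the annotated start, and end early where a protein-coding exon is annotated. Capitals mark GCATGCGC, part of the NRF1 binding word, in Cycs, and CCGGAAG, an ETS word, in Uqcr11.
Cycs, chr6:50566570-50566819, minus strand: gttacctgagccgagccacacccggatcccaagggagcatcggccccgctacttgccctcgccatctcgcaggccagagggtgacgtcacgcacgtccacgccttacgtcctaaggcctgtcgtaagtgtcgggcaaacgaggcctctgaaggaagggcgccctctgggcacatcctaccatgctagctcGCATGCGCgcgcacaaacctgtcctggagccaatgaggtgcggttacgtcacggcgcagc
Uqcr11, chr10:80406831-80407071, minus strand: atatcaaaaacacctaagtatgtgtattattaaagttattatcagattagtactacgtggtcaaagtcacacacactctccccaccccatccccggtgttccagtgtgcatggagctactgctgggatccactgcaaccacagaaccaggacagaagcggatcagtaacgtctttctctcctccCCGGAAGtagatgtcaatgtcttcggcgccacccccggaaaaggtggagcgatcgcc
Cox7b, chrX:106015450-106015699, plus strand: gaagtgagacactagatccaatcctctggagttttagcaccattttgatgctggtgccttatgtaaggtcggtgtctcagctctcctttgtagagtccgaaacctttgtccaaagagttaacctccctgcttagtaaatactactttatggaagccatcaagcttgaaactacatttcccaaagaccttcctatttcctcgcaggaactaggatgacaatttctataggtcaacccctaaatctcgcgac
Atp5b, chr10:128083057-128083272, plus strand: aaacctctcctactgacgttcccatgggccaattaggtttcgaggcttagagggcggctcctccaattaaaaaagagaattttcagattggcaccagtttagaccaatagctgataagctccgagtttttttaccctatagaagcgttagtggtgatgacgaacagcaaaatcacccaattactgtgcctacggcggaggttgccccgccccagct

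The first capital lies 60 bases before the start in Cycs and 66 bases before it in Uqcr11. Of the 49 members, 38 had a promoter entry, and 5 words were searched on both strands of the 250 bases. The NRF1 word was present for 6 of the 38 members (15.8%), against 2.56% of the 27025 genes with an entry and 4.34% of those tested here. The 6 were Cycs, Sdhb, Cox6a1, Atp5g2, Atp5k and Atp5l, which span the highest and some of the lowest log2 fold changes of the members. The ETS word was present for 9 members (23.7%), against 7.83% of all genes and 13.7% of tested genes. Of the other words, AAGATGGC of YY1 was present for 2 members (5.26%), against 1.83% of all genes and 2.17% of tested genes. TCAAGGTCA of the oestrogen-related receptors was present for 1 member (2.63%), against 0.422% and 0.322%. The E-box CACGTG was present for 5 members (13.2%), against 6.86% and 9.18%. In the E-box both strands read alike, and no searched word contains another. A match is a description of the sequence, and the 21 members without one lack only these letters in this window.

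Most members were moderately higher in the K-Ras Mll4-/- tumours, but no single gene passed the test. Of the 46 members that passed the count filter, 44 had a positive log2 fold change (K-Ras Mll4-/- minus K-Ras), against 48.8% of all 16001 genes tested. In 39 of them both K-Ras Mll4-/- samples lay above both K-Ras samples, against 29.9% of all genes. With scaling by total counts 31 did, and with upper quartile scaling 33. Cox6a2 and Atp5sl lay lower in both K-Ras Mll4-/- samples, an arrangement found for 28.5% of all genes, and the groups overlapped for Sdhb, Cox4i2, Atp5e, Atp5k and Atp5l. The median log2 fold change was 0.47, against -0.01 over all genes tested, and the values ran from -0.91 (Cox6a2) to 1.12 (Cycs). The 49 genes took 0.396% and 0.370% of gene-assigned reads in the K-Ras Mll4-/- samples, against 0.307% and 0.255% in K-Ras.

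By the edgeR quasi-likelihood test, 0 members were called at an adjusted p under 0.05, where 0.0375% of all genes were called. At an unadjusted p under 0.05 there were 24 members higher and 1 lower, against 11.4% and 10.4% of all genes. With total count scaling 16 members were higher at that threshold, and with upper quartile scaling 17. With DESeq2 and with the edgeR likelihood ratio test there were 19. In these 4 settings 3444 to 3494 of all genes passed in either direction, against 3484 in the main fit. DESeq2 called 5 members (Cycs, Atp5b, Cox7b, Atp5d and Cox6a1) and the edgeR likelihood ratio test called 4 of these, all higher. These tests called 5.02% and 4.85% of all genes higher. The limma-voom fit called 0 members and 0 of all genes. A blocked fit on replicate numbers called 1 member (Cycs), and 1.24% of all genes higher. The smallest edgeR quasi-likelihood adjusted p among the members was 0.147. A design of 2 against 2 cannot give an exact two-sided permutation p below 0.333 for any single value.

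**Figure D1:**
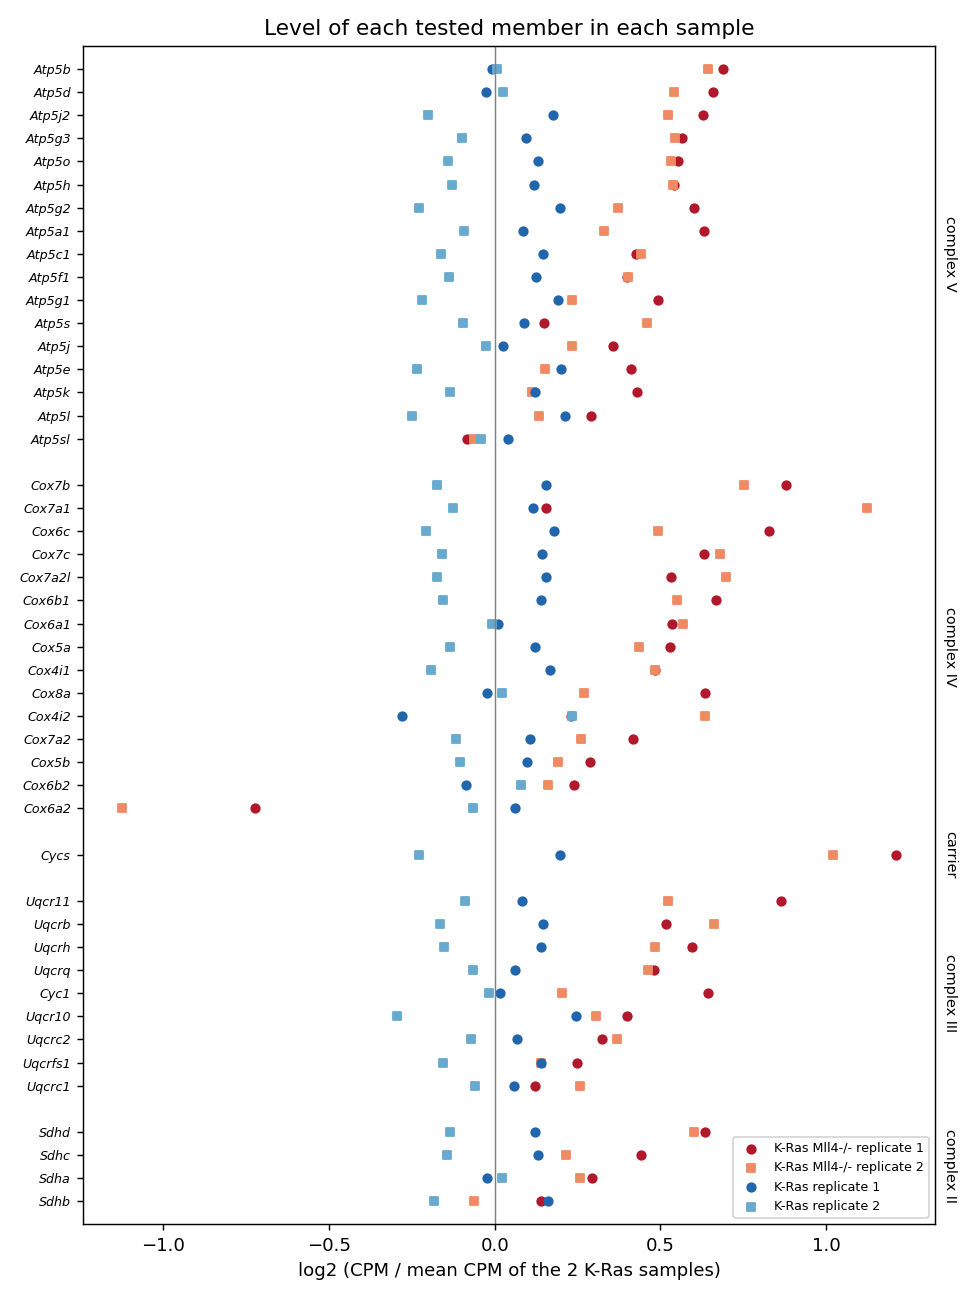
Each row is 1 of the 46 tested members, grouped by complex, and each point is 1 sample, placed at the log2 ratio of its CPM to the mean of the K-Ras samples. The K-Ras Mll4-/- points lie to the right of both K-Ras points in 39 rows and to the left in 2, Cox6a2 and Atp5sl, and Cycs lies farthest right by its fitted difference.

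The K-Ras samples differed more from each other than the K-Ras Mll4-/- samples did. Replicate 1 was above replicate 2 for 40 of the 46 members in the K-Ras group, by a median of 0.26 on the log2 scale, and for 33 members in the K-Ras Mll4-/- group, by a median of 0.10. K-Ras replicate 2, the airway-rich library, was therefore the lowest sample for most members. Without it the median log2 fold change was 0.37, with 42 members positive and 39 above without overlap, and without K-Ras replicate 1 it was 0.58, with 44 positive.

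The complex II genes had positive log2 fold changes from 0.04 to 0.62. The 4 genes together reached 354 and 333 CPM in the K-Ras Mll4-/- samples and 291 and 271 CPM in the K-Ras samples, with a median log2 fold change of 0.30. Sdha, the flavoprotein that holds the succinate site, was at 194 and 189 CPM in the K-Ras Mll4-/- samples and at 156 and 161 CPM in the K-Ras samples. The groups were apart, the fitted log2 difference being 0.27 (SE 0.12, edgeR adjusted p = 0.277). Sdhb, the iron-sulphur subunit that carries electrons from the flavin towards ubiquinone, was at 56.3 and 49.0 CPM in the K-Ras Mll4-/- samples and at 57.2 and 45.0 CPM in the K-Ras samples. Its groups overlapped, the fitted log2 difference being 0.04 (SE 0.17, edgeR adjusted p = 0.909), and its sign turned under total count scaling, upper quartile scaling and the GC and length offsets.

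The membrane anchors Sdhc and Sdhd bind ubiquinone. Sdhc was at 49.2 and 42.1 CPM in the K-Ras Mll4-/- samples against 39.7 and 32.8 CPM in the K-Ras samples, close but without overlap (log2 fold change 0.33, SE 0.17, edgeR adjusted p = 0.310). Sdhd was at 54.7 and 53.5 CPM against 38.4 and 32.1 CPM, a wider gap (log2 fold change 0.62, SE 0.15, edgeR adjusted p = 0.163). Sdhb was thus level between the groups while Sdhd was 1.53-fold higher, and the difference between these members was not tested.

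All 9 genes of complex III were higher in both K-Ras Mll4-/- samples, against 29.9% of all genes. Their median log2 fold change was 0.44. Their summed level was 532 and 518 CPM against 420.3 and 365 CPM in the K-Ras samples. Cyc1, the cytochrome c1 that delivers electrons to cytochrome c, was at 45.1 and 33.3 CPM in the K-Ras Mll4-/- samples and at 29.2 and 28.5 CPM in the K-Ras samples (log2 fold change 0.44, SE 0.19, edgeR adjusted p = 0.263). The K-Ras Mll4-/- values were wide apart, and the lower of them stood close to the K-Ras level.

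The small accessory subunits of complex III held its largest differences. Uqcr11 was at 54.7 and 43.2 CPM in the K-Ras Mll4-/- samples and at 31.9 and 28.3 CPM in the K-Ras samples (log2 fold change 0.70, SE 0.17, edgeR adjusted p = 0.167). Uqcrb was at 84.3 and 93.2 CPM against 65.2 and 52.6 CPM (log2 fold change 0.59, SE 0.16, edgeR adjusted p = 0.177). When GC content and transcript length entered as offsets, the log2 fold change of Uqcrb was 0.31. Uqcrh, the hinge protein beside cytochrome c1, was at 94.7 and 87.6 CPM against 69.0 and 56.3 CPM (log2 fold change 0.54, SE 0.15, edgeR adjusted p = 0.180). At the other end, the core protein gene Uqcrc1 was at 90.0 and 99.0 CPM against 86.1 and 79.5 CPM, its groups only just apart (log2 fold change 0.19, SE 0.13, edgeR adjusted p = 0.424). The remaining 4 genes of complex III, among them the Rieske protein gene Uqcrfs1 at 0.20, had log2 fold changes up to 0.47. Without K-Ras replicate 2, Uqcrfs1 was at 0.04 and Uqcr10 at 0.09 instead of 0.35, and without K-Ras replicate 1 they were at 0.35 and 0.65. With GC and length offsets Uqcrfs1 was at 0.07.

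Cycs showed the largest difference of all members. It encodes the somatic cytochrome c, which shuttles electrons from complex III to complex IV and triggers caspase activation when released into the cytosol. Its level was 64.0 and 56.1 CPM in the K-Ras Mll4-/- samples and 31.7 and 23.6 CPM in the K-Ras samples. Both values of the first group were well above both of the second, a 2.17-fold difference (log2 fold change 1.12, SE 0.19, edgeR adjusted p = 0.147). DESeq2 called it (adjusted p = 0.00116), as did the edgeR likelihood ratio test (adjusted p = 0.00120). Leaving out single samples moved the log2 fold change between 0.91 and 1.35. Cyct, the testis form of cytochrome c, had 1 read in K-Ras replicate 1 and 0 reads in the other samples.

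Among the complex IV genes, the widely expressed forms were higher in the K-Ras Mll4-/- tumours, the heart and muscle form Cox6a2 was lower, and of the testis forms Cox7b2 and Cox8c had no reads while Cox6b2 was detected at a low level. The 18 genes summed to 937 and 908 CPM in the K-Ras Mll4-/- samples and to 688 and 579 CPM in the K-Ras samples, and the 15 that were tested had a median log2 fold change of 0.48. In 13 of the 15 both K-Ras Mll4-/- samples were the higher, against 29.9% of all genes. Cox4i2 overlapped and Cox6a2 was the lower.

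Subunit 4, the largest nuclear subunit of complex IV, binds ATP as a regulator of the enzyme. Its common form Cox4i1 was at 136 and 136 CPM in the K-Ras Mll4-/- samples and at 109 and 85.2 CPM in the K-Ras samples (log2 fold change 0.48, SE 0.17, edgeR adjusted p = 0.209). The lung and hypoxia form Cox4i2 was at 7.12 and 9.43 CPM against 5.001 and 7.14 CPM, with overlapping groups (log2 fold change 0.45, SE 0.30, edgeR adjusted p = 0.430). Per kilobase of transcript, Cox4i1 was at 180.2 ± 0.0618 and Cox4i2 at 11.3 ± 2.24 CPM per kb in the K-Ras Mll4-/- group (SD, n = 2). Cox4i2 took 4.97% and 6.48% of the reads of the pair in the K-Ras Mll4-/- samples and 4.37% and 7.72% in K-Ras. The shares interleaved between the groups. The 8 pericyte markers, given because Cox4i2 is known from such cells, summed to 180 and 158 CPM against 241 and 154 CPM and overlapped as well.

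Subunit 6a was the only subunit with both forms tested whose forms had log2 fold changes of opposite sign. Cox6a1, the form of most tissues, was at 85.2 and 87.2 CPM in the K-Ras Mll4-/- samples and at 59.2 and 58.4 CPM in the K-Ras samples (log2 fold change 0.55, SE 0.11, edgeR adjusted p = 0.153). Its replicates were close and its groups far apart. Cox6a2, the heart and skeletal muscle form, was at 5.48 and 4.16 CPM against 9.45 and 8.66 CPM, from 134 to 313 reads per sample. It was the only tested complex IV member below in both K-Ras Mll4-/- samples (log2 fold change -0.91, SE 0.26, edgeR adjusted p = 0.180), and every sample left out in turn kept it between -1.12 and -0.73.

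As a share of the reads of the pair, Cox6a2 made up 6.04% (95% exact binomial interval 5.12% to 7.08%) and 4.55% (3.83% to 5.37%) in the K-Ras Mll4-/- samples. In the K-Ras samples it made up 13.8% (12.3% to 15.3%) and 12.9% (11.6% to 14.3%). These intervals cover counting error only. The difference in mean share, K-Ras Mll4-/- minus K-Ras, was -8.03 percentage points, with a pooled SD of 0.861 between replicates. The share moves through both genes at once, since Cox6a1 was higher where Cox6a2 was lower. Among the 8 cardiomyocyte markers the summed level was 36.6 and 27.5 CPM in the K-Ras Mll4-/- samples against 23.6 and 41.02 CPM, with overlap. The largest part of this sum was Ryr2, at 28.1 and 17.5 CPM against 11.4 and 26.3 CPM. None of the 8 was at 0 in all samples. Of the 7 that were tested, 2 were lower without overlap (Tnni3 and Myl4), 1 was higher without overlap (Myl7, log2 fold change 0.95) and 4 overlapped. Over all genes tested, 28.5% were lower and 29.9% higher without overlap, so the 2 lower markers were near that share. The cardiac troponin gene Tnni3 was at 1.10 and 1.09 CPM against 3.30 and 6.09 CPM (edgeR adjusted p = 0.153). Of the 7 skeletal muscle markers, 4 were tested and Myh4 had no read in any sample. Ttn and Tnnt3 were lower without overlap, Mylpf was higher without overlap (log2 fold change 1.33) and 1 tested marker overlapped. The sum of the 7 skeletal muscle markers, mostly Ttn, was 29.6 and 32.6 CPM against 47.9 and 41.2 CPM. The part of these cells in the Cox6a2 difference was not tested.

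**Figure D2:**
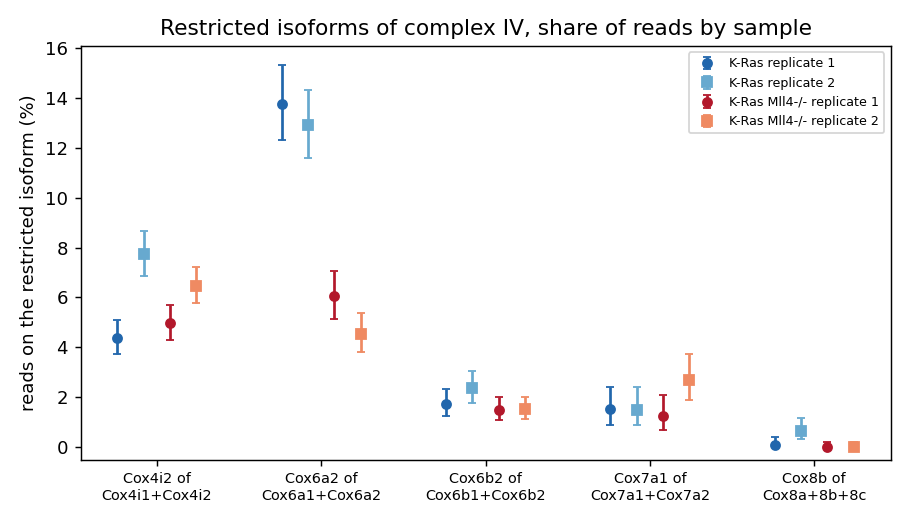
The vertical axis gives the percentage of reads on the restricted isoform out of all reads of its subunit, for each sample, with exact binomial 95% intervals. The Cox6a2 share was 13.8% and 12.9% in the K-Ras samples and 6.04% and 4.55% in the K-Ras Mll4-/- samples, while the shares of Cox4i2 and Cox7a1 interleaved.

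For subunit 7a, the common form Cox7a2 was at 44.6 and 40.01 CPM in the K-Ras Mll4-/- samples and at 36.0 and 30.8 CPM in the K-Ras samples (log2 fold change 0.34, SE 0.15, edgeR adjusted p = 0.266). The heart and muscle form Cox7a1 had 15, 36, 17 and 17 reads, at 0.571 and 1.12 CPM against 0.556 and 0.470 CPM. The fitted log2 difference was 0.73 (SE 0.53, edgeR adjusted p = 0.459), and 0.15 without K-Ras Mll4-/- replicate 2. Cox7a1 made up 1.26% and 2.71% of the reads of the pair in the K-Ras Mll4-/- samples and 1.52% and 1.503% in K-Ras. Cox7a2l, the related protein that joins complexes III and IV into supercomplexes, was at 211 and 237 CPM against 162 and 129 CPM, a clear separation (log2 fold change 0.62, SE 0.17, edgeR adjusted p = 0.180).

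Cox7b had the highest log2 fold change among the complex IV genes. It was at 55.7 and 51.0 CPM in the K-Ras Mll4-/- samples and at 33.8 and 26.9 CPM in the K-Ras samples, a 1.76-fold difference (log2 fold change 0.82, SE 0.17, edgeR adjusted p = 0.153). DESeq2 called it (adjusted p = 0.0153). With GC and length offsets the log2 fold change was 0.54. Its testis partner Cox7b2 had 0 reads in every sample. The 95% exact binomial intervals of its share reached up to 0.224% to 0.379% of the reads of the pair.

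Subunit 6b lies on the outer face of the enzyme, where cytochrome c docks. Cox6b1 was at 107 and 98.9 CPM in the K-Ras Mll4-/- samples and at 74.4 and 60.7 CPM in the K-Ras samples (log2 fold change 0.61, SE 0.15, edgeR adjusted p = 0.169). The testis form Cox6b2 was detected in every sample, at 1.64 and 1.55 CPM against 1.31 and 1.47 CPM from 40 to 53 reads, and its values were nearly level (log2 fold change 0.20, SE 0.35, edgeR adjusted p = 0.764). Its share of the pair was 1.503% and 1.54% in the K-Ras Mll4-/- samples, against 1.73% and 2.36% in K-Ras. Other testis germ cell genes were at the floor, the 7 markers summing to 0.0620 to 0.327 CPM, with Tnp1 and Pgk2 at 0 in all samples.

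For subunit 8, Cox8a was at 71.4 and 55.4 CPM in the K-Ras Mll4-/- samples and at 45.2 and 46.7 CPM in the K-Ras samples (log2 fold change 0.46, SE 0.17, edgeR adjusted p = 0.218). Its groups were apart although the K-Ras Mll4-/- values differed widely. Cox8b, the heart, muscle and brown fat form, had 0 reads in both K-Ras Mll4-/- samples, 1 read in K-Ras replicate 1 and 11 reads in K-Ras replicate 2. It did not pass the count filter, and its signal lay in the airway-rich library. The other 5 brown adipocyte markers did not move as one. In that library Ucp1 had 5 reads (0 in the others) and Cidea 153 (13 to 70 in the others), while Adipoq had 0 (10 to 24 in the others), Plin1 had 4 (21 to 28 in the others) and Elovl3 had 0 in every sample. The testis form Cox8c had 0 reads in every sample.

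The complex IV subunits without a tissue form were higher as well. Cox6c was at 99.9 and 79.1 CPM in the K-Ras Mll4-/- samples and at 63.7 and 48.8 CPM in the K-Ras samples, with a log2 fold change of 0.67. Cox7c had a log2 fold change of 0.66, Cox5a of 0.48 and Cox5b of 0.24, and the groups did not overlap for any of these 4 genes. With GC and length offsets Cox7c was at 0.34 and Cox5b at 0.06.

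Complex V carried the largest share of the reads, with 2135 and 1956 CPM over its 17 genes in the K-Ras Mll4-/- samples and 1492 and 1351 CPM in the K-Ras samples. The median log2 fold change was 0.43, and 13 of the 17 genes were higher without overlap, against 29.9% of all genes. The 5 genes of the F1 head, where ATP is made, had a median of 0.49. The catalytic beta subunit gene Atp5b was at 651 and 631 CPM in the K-Ras Mll4-/- samples and at 401 and 406 CPM in the K-Ras samples. Its replicates differed little and the groups were 1.59-fold apart (log2 fold change 0.67, SE 0.15, edgeR adjusted p = 0.163). DESeq2 called it (adjusted p = 0.00363). Atp5a1, which encodes the alpha subunit that alternates with beta in the head, was at 676 and 548 CPM against 463 and 409 CPM (log2 fold change 0.49, SE 0.19, edgeR adjusted p = 0.240).

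Atp5d, for the delta subunit at the foot of the central stalk, was at 114 and 105 CPM in the K-Ras Mll4-/- samples and at 70.8 and 73.2 CPM in the K-Ras samples, well apart (log2 fold change 0.60, SE 0.12, edgeR adjusted p = 0.153; DESeq2 adjusted p = 0.0243). Its neighbour in the stalk, the epsilon gene Atp5e, overlapped between the groups, at 18.1 and 15.1 CPM against 15.7 and 11.6 CPM (log2 fold change 0.29). The gamma gene Atp5c1, the rotating shaft, had a log2 fold change of 0.43. The 4 stator genes Atp5o, Atp5f1, Atp5h and Atp5j, which hold the head still, had log2 fold changes of 0.54, 0.40, 0.54 and 0.30, and the groups did not overlap for any of them.

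The c subunit, whose copies form the rotor ring, is made from 3 genes that encode the same mature protein behind different targeting peptides. Atp5g1 was at 27.4 and 22.9 CPM in the K-Ras Mll4-/- samples and at 22.2 and 16.7 CPM in the K-Ras samples (log2 fold change 0.37, SE 0.21, edgeR adjusted p = 0.361). Atp5g2 was at 31.0 and 26.5 CPM against 23.4 and 17.5 CPM (log2 fold change 0.49, SE 0.21, edgeR adjusted p = 0.256). Atp5g3 was at 52.0 and 51.3 CPM against 37.6 and 32.9 CPM, the widest gap of the 3 (log2 fold change 0.55, SE 0.13, edgeR adjusted p = 0.165). The share of Atp5g3 in the reads of the 3 genes overlapped between the groups. It took 47.1% and 51.0% of their reads in the K-Ras Mll4-/- samples and 45.1% and 49.0% in K-Ras, and Atp5g1 took 24.8% and 22.7% against 26.7% and 24.9%, only just apart, and the exact intervals of the nearest samples overlapped.

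Among the membrane subunits of complex V, Atp5j2 (subunit f) was at 37.9 and 35.3 CPM in the K-Ras Mll4-/- samples and at 27.7 and 21.4 CPM in the K-Ras samples (log2 fold change 0.58, SE 0.18, edgeR adjusted p = 0.192). Atp5k (subunit e) and Atp5l (subunit g), which shape the synthase dimer, overlapped between the groups, with log2 fold changes of 0.28 and 0.21. The symbol rule also took in Atp5s and Atp5sl, of which Atp5sl (now Dmac2) is known as an assembly factor of complex I rather than a subunit of the synthase. Atp5sl was at 24.4 and 24.8 CPM against 26.7 and 25.2 CPM, nearly level although the samples did not overlap (log2 fold change -0.07, SE 0.14, edgeR adjusted p = 0.778). Atp5s, from 86 to 131 reads per sample, had a log2 fold change of 0.31 (SE 0.30).

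**Figure D3:**
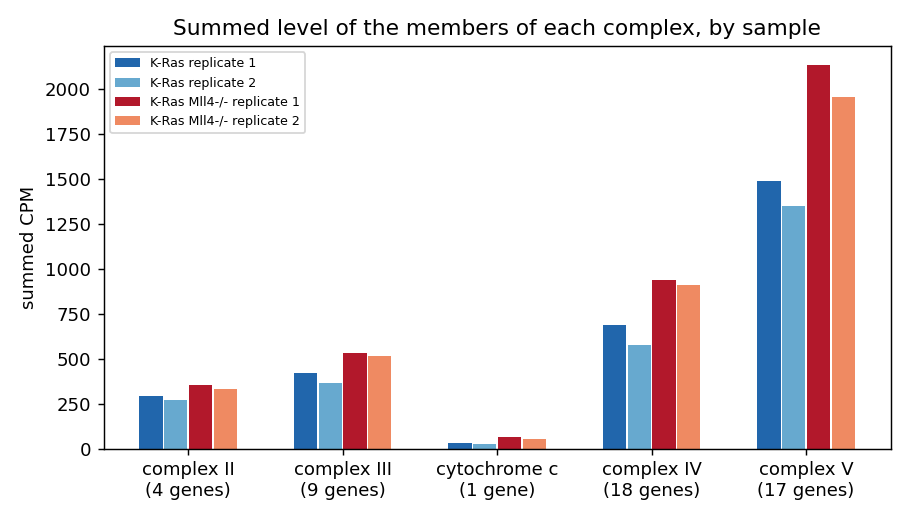
Bars give the summed CPM of the members of each complex in each sample, with the vertical axis starting at 0 and the number of genes under each name. In all 5 groups both K-Ras Mll4-/- bars stand above both K-Ras bars, from 354 and 333 against 291 and 271 CPM for complex II to 2135 and 1956 against 1492 and 1351 CPM for complex V.

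Reads that align to several places were not assigned to genes, and many members have processed copies. In GENCODE M21, 14 of the 49 members shared at least 100 bases at 95% identity or more with a transcript annotated as a pseudogene, 9 such copies for Atp5l, 4 for Atp5h and Cox7c, and 3 for Cycs and Uqcrb. The 14 had a median log2 fold change of 0.57, and the 32 tested members without a pseudogene copy had 0.44. With transcripts of any annotated type counted, 21 of the 49 members had a copy, and Cycs had 51. Some of the 32 thus had a copy of another type. The tally of reads with several alignments made up 34.1% and 31.5% of all counts, assigned and unassigned together, in the K-Ras Mll4-/- samples. These shares were below the 36.7% and 34.9% of the K-Ras samples. Whether such a read was tallied once or once per alignment is not given in the sources used here. The part of such reads in the differences was not tested.

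The members are short genes, with a median transcript length of 787 bases against 2999 over all genes tested, and a similar median GC content (50.7% and 50.2%). The 1171 tested genes with a transcript under 1000 bases had a median log2 fold change of 0.09, against -0.02 for the longer genes. The 26 members under 1000 bases had a median of 0.49 and the 20 longer members 0.42. With offsets for GC content and length the median of the members was 0.38.

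Genes that serve the same complexes were compared from lists. Of 5 subunit and regulator genes that the symbol rule misses, 4 were tested. All 4 were higher without overlap, against 29.9% of all genes. Atpif1, the inhibitor that stops ATP synthase from running backwards, was at 79.1 and 93.4 CPM in the K-Ras Mll4-/- samples and at 45.1 and 42.9 CPM in the K-Ras samples (log2 fold change 0.97, SE 0.14, edgeR adjusted p = 0.135; DESeq2 adjusted p = 5.71e-04). Ndufa4, a complex IV subunit despite its name, was at 41.2 and 49.6 CPM against 25.5 and 27.7 CPM (log2 fold change 0.77, SE 0.16, edgeR adjusted p = 0.153). The complex V subunits Usmg5 and 2010107E04Rik had log2 fold changes of 0.66 and 0.56. With GC and length offsets the median of the 4 genes was 0.50.

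Over all genes tested, 48.8% had a positive log2 fold change and 29.9% were higher without overlap. The 35 complex I subunit genes all had positive log2 fold changes, with a median of 0.39 and 28 higher without overlap. The 37 tested assembly factors had a median of 0.26, with 30 positive and 25 higher without overlap. Of these, Higd1a was at 29.2 and 27.8 CPM against 17.5 and 16.6 CPM (log2 fold change 0.74, SE 0.14, edgeR adjusted p = 0.147), and Cox17, the copper chaperone of complex IV, was at 20.4 and 16.6 CPM against 10.98 and 11.1 CPM (log2 fold change 0.74, SE 0.19, edgeR adjusted p = 0.170). The 79 tested cytosolic ribosomal protein genes, also short and abundant, had a median of 0.60, with 77 positive and 73 higher without overlap. None of these lists had a gene called by the edgeR quasi-likelihood test. At an unadjusted p under 0.05 there were 12 complex I genes, 4 assembly factors and 50 ribosomal protein genes, all higher, where 11.4% of all genes were. DESeq2 called 3, 1 and 22 genes of these lists, counted in either direction. Of all 16001 genes it called 1601 in either direction, and 5.02% higher. The assembly factors, with 4 and 1 of 37, were near or below these shares.

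Of the 14 regulators of nuclear respiratory genes, 11 had a positive log2 fold change, against 48.8% of all genes, with a median of 0.27. Myc, a broad activator of growth and mitochondrial genes, was at 63.8 and 66.0 CPM in the K-Ras Mll4-/- samples and at 33.3 and 34.4 CPM in the K-Ras samples, its replicates nearly equal (log2 fold change 0.94, SE 0.12, edgeR adjusted p = 0.128; DESeq2 adjusted p = 1.81e-04). Pprc1, a coactivator of the PGC-1 family, was at 44.3 and 45.9 CPM against 35.2 and 34.8 CPM (log2 fold change 0.37, SE 0.12, edgeR adjusted p = 0.201). Of the other factors whose words were searched in the promoters, Nrf1 stood at a log2 fold change of -0.01 (SE 0.12) and Gabpa at 0.07 (SE 0.13), both with overlap. Yy1 stood at 0.28 (SE 0.11, edgeR adjusted p = 0.254) and Esrra, an oestrogen-related receptor, at 0.31 (SE 0.15, edgeR adjusted p = 0.313), both higher without overlap. Ppargc1a, the coactivator PGC-1α, overlapped between the groups at 18.6 and 11.2 CPM against 9.09 and 13.8 CPM. No gene of the mitochondrial genome was among the listed genes matched by symbol, so the subunits it encodes were not analysed here.

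**Figure D4:**
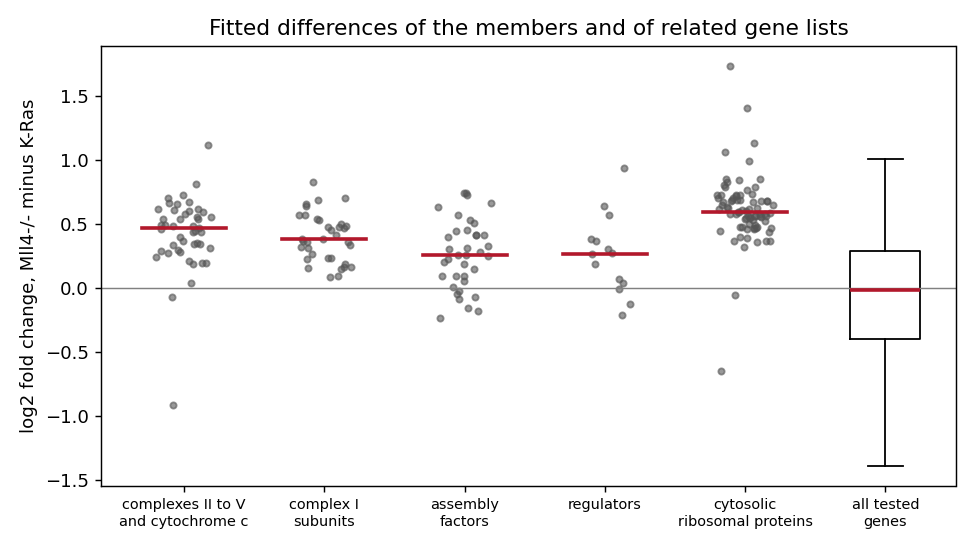
Each point is the fitted log2 fold change of 1 tested gene, the red lines are medians, and the box shows all 16001 tested genes with its quartiles and whiskers at the 5th and 95th percentiles. The medians were 0.47 for the members, 0.39 for complex I, 0.26 for assembly factors, 0.27 for regulators, 0.60 for ribosomal proteins and -0.01 for all genes.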

How the data were processed

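RNA sequencing was run on 4 mouse lung tumour samples, 2 per group, and the titles gave each sample its group and number. The authors deposited raw read counts per gene symbol, 1 file per sample. The submitters' processing notes name CASAVA 1.4, STAR, HTSeq and the build mm9. The annotation and strand setting are not given in the sources used here. The 5 closing tallies of each file name no gene and were left out of library sizes. Together they made up 60.1% to 65.6% of all counts, genes and tallies together.

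Counts were fitted with edgeR 4.0.16 in R 4.3.3 (filterByExpr, TMM, robust quasi-likelihood test, K-Ras Mll4-/- minus K-Ras), with Benjamini-Hochberg adjustment over 16001 genes and a threshold of 0.05. CPM are counts scaled to TMM-normalised library sizes. SEs are the log2 fold change divided by the root of F. Per kb values used GENCODE M21 principal transcripts. Alternatives used DESeq2 1.42.0, limma 3.58.1 and mgcv 1.9.3. GC content and length were known for 15861 tested genes. Simulated counts served to test the fits. Named were all tissue forms with their partners, Cycs, Cyc1, the complex II and c subunit genes, and in complexes III to V the 3 members farthest from 0 in log2 fold change and the 1 nearest to it. From each list the 2 genes with the smallest p were eligible; other genes named were chosen after their values were seen. The members, lists and alternatives were chosen with earlier results of these data known.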

Additional observations from a re-analysis of the deposited data

Results flagged for a closer look

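Reads that fell in overlapping genes, which no comparison uses, made up 0.321% and 0.314% of all counts, genes and tallies together, in the K-Ras Mll4-/- samples. These shares were above the 0.274% and 0.262% of the K-Ras samples. The difference was not tested.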

How the results depend on the processing

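Against 0 members called, DESeq2 called 5, the edgeR likelihood ratio test 4 and the replicate block 1 (Cycs), and leaving out single samples gave 0 to 1 (Cycs, without K-Ras replicate 1). Over all genes, against 6, no count filter gave 44, DESeq2 1601, the likelihood ratio test 1503, limma-voom 0, the replicate block 217, the replicate block plus GC and length offsets 103, and leaving out single samples 0 to 528, the highest without K-Ras replicate 1. The replicate numbers pair the samples only by number: deviations of same-numbered samples correlated at 0.21, and the median log2 fold change of the members was 0.46 with the replicate block, which changed no other member call. The other settings put that median between 0.38 and 0.47, with 43 to 44 members positive and 31 to 40 higher without overlap. Leaving out samples gave 0.37 to 0.58, 42 to 44 and 39 to 44. The sign of Sdhb turned with upper quartile scaling (-0.0176), total count scaling (-0.0151), GC and length offsets (-0.0190) and these with the block (-0.0136), and leaving out samples gave -0.13 to 0.23. For Atp5l they gave -0.0120 (without K-Ras replicate 2) to 0.47. Per length, the Cox6a2 share differed by -6.95 percentage points instead of -8.03 and that of Atp5g1 by -0.462 instead of -2.05. The annotated length of Atp5g1 (4660 bases) is that of a long transcript. The Cox8b share differed by -0.647 to -0.0722 without single K-Ras samples. The cause of these changes was not tested.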
